A study of Mus musculus with 15 samples.

Results

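The genes described here are 8 members of the cardiac stress and fetal gene program: Nppa, Nppb, Myh7, Acta1, Myl4, Myl7, Ankrd1 and Tnni1. They were taken by gene symbol, and every probe named for them was read, which gave 13 probes of 41174 on the array. Expression was measured on 15 one-colour mouse arrays, 3 for each of 5 groups. The cardiac allografts were hearts of C57BL/10 mice (B10, H-2b) placed in the abdomen of CBA mice (H-2k), connected to the circulation, and taken on post-operative day 5 (POD5). The hepatic allografts were livers of B10.BR mice (H-2k) put in place of the liver of B10.D2 mice (H-2d) and taken at POD5 or at POD8. The cardiac and hepatic controls are normal tissue in the labels and the methods and isografts elsewhere in the study, with no strain in the labels, so they are called controls here. A heart placed in the abdomen in this way is perfused but does not pump the blood of the recipient, which limits it as a model of a working heart. The methods speak of 3 mice per time point in the PCR part, and no label ties an array to an animal.

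Heart muscle of the embryo and heart muscle under load share a set of genes. Nppa and Nppb encode the natriuretic peptides ANP and BNP, which atrial muscle makes in the adult and ventricular muscle makes again under stretch or injury. Myh7 (beta myosin heavy chain), Acta1 (skeletal alpha-actin) and Tnni1 (slow skeletal troponin I) are the fetal or slow forms of proteins whose adult cardiac forms in the mouse are Myh6, Actc1 and Tnni3. Myl4 and Myl7 are atrial myosin light chains, also made in the embryonic heart, with the ventricular partners Myl3 and Myl2. Ankrd1 (cardiac ankyrin repeat protein) sits at the titin filament and is induced by stretch. RNA levels of these genes are commonly read as signs of cardiac stress.

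The proximal promoters of 5 genes are shown because the results below turn on them: the natriuretic peptide genes Nppb and Nppa, which lie 13516 bases apart on chromosome 4, the myosin heavy chain genes Myh6 and Myh7, which lie 2666 bases apart on chromosome 14, and the atrial light chain gene Myl7. Each run is the 250 bases before a transcript start in RefSeq (build GRCm38.p6), read 5′ to 3′ on the strand of the gene. For Nppb and Myh6 that start lies inside the outer bounds of the gene, which set the distances above, so part of the Nppb run and all of the Myh6 run lie within those bounds. Capitals mark matches, on either strand, to a GATA site (spelled AGATAA, with the variants AGATAG, or with T in first place TGATAA, or lastly TGATAG), the MCAT element bound by TEAD factors (CATTCC), an Nkx2-5 element (TNAAGTG) and the CArG box bound by SRF. The runs lie at chr4:148000472-148000721 (plus strand) for Nppa, chr4:147985650-147985899 (plus) for Nppb, chr14:54994627-54994876 (minus) for Myh7, chr14:54966608-54966857 (minus) for Myh6 and chr11:5898783-5899032 (minus) for Myl7.
Nppa: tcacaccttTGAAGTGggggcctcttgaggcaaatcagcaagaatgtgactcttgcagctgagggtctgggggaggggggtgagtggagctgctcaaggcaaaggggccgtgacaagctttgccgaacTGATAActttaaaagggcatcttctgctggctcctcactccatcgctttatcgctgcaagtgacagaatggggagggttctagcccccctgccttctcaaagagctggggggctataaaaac
Nppb: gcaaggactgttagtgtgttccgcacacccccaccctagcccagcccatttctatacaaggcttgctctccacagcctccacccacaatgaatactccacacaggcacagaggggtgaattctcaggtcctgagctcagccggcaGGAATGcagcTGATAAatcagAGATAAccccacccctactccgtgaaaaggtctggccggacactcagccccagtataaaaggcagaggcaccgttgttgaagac
Myh7: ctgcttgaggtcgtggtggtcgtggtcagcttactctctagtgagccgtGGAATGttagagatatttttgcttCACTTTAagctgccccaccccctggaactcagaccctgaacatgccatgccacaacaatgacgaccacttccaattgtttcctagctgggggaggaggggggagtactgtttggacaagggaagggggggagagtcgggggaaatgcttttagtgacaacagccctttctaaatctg
Myh6: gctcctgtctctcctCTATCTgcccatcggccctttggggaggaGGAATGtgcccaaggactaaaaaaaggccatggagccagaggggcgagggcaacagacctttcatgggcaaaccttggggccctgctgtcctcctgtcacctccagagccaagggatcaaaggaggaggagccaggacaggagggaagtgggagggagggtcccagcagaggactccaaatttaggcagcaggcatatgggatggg
Myl7: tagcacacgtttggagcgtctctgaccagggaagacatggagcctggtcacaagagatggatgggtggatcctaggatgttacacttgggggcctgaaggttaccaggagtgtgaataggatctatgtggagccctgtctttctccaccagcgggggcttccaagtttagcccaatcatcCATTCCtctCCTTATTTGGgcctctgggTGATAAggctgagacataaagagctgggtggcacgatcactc

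All 8 members had an entry in the promoter table. A GATA match was found in 4 of them (Nppa, Nppb, Myl7 and Ankrd1), against 26.5% of all 32851 windows of this length. An MCAT match was found in 5 (Nppb, Myh7, Acta1, Myl7 and Ankrd1), against 12.6% of all windows. A CArG box was found in Acta1 and Myl7, against 1.47% of all windows, and an Nkx2-5 element in Nppa and Myh7, against 10.1%. No member held a MEF2 box, which 2.92% of all windows held. No match of one motif overlapped a match of another in these windows. The matches describe letters in the windows and not bound sites.

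The arrays differed in ways that bear on every value below. All 3 cardiac allografts were hybridised on 1 slide and all 3 cardiac controls on another, so that in the heart the effects of group and slide cannot be told apart. In the liver no slide held both POD5 allografts and controls, so the same holds there. Hepatic POD5 allograft 3 was on the slide of the cardiac allografts and was scanned on another day than the other liver arrays. Hepatic POD8 allografts 1 and 2 shared a slide with hepatic controls 1 and 2. The 75th percentile of the processed signal was 394 to 710 on cardiac allograft arrays and 1021 to 1247 on cardiac control arrays. Allograft 2 had the lowest of these and the fewest probes well above background (56.2%, against 61.3% to 70.4% on the other 5 heart arrays). All 12 cardiomyocyte markers were well above background on each heart array, and 3 to 6 of them on the liver arrays. Beside 15.3% of all probes higher and 16.1% lower, 7 of 7 T cell markers rose in the cardiac allografts, with a median log2 difference of 4.20. There 5 of 12 cardiomyocyte, 5 of 5 endothelial, 5 of 6 smooth muscle and 4 of 6 fibroblast markers fell. The part of this shift in tissue make-up in the results below was not tested, and in whole tissue fewer cells of a type and less RNA per cell cannot be told apart.

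None of the 8 members differed between cardiac allografts and controls at an adjusted p under 0.05 (log2 signal, quantile normalization of the 6 heart arrays together, limma, Benjamini-Hochberg over 41025 probes). Of all probes, 31.4% passed the same test, 15.3% higher and 16.1% lower in allografts. One member, Ankrd1, had an unadjusted p under 0.05. By their means 4 members were higher and 4 lower in allografts, with a median log2 difference of -0.04 against 0.01 over all probes. The groups did not overlap for 1 member, again Ankrd1, against 54.6% of all probes (29% with the allografts higher). Below, each gene is given on its brightest probe in the heart, first as the processed signal of the scanner software and then as normalized log2 signal, always in the order of replicates 1, 2 and 3.

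**Figure D1:**
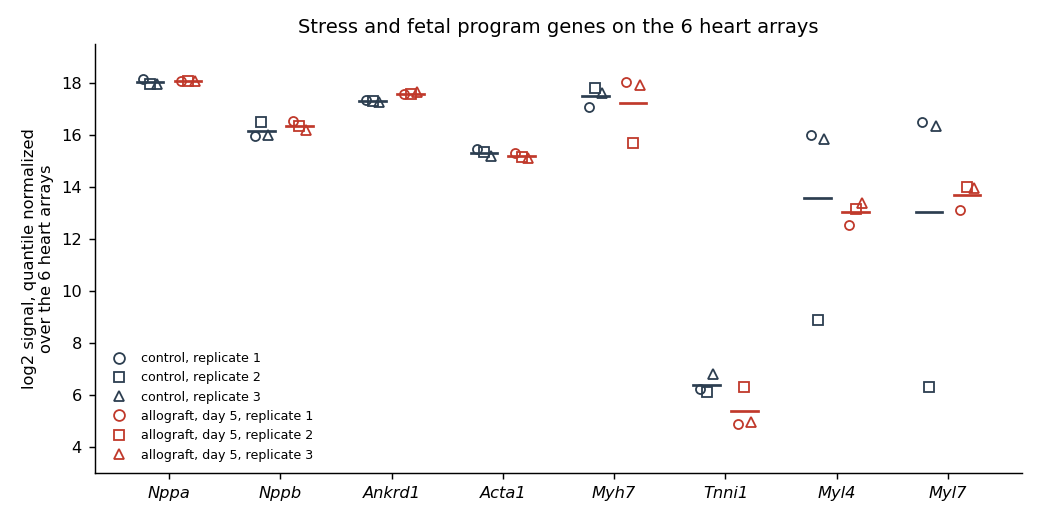
Log2 signal of the 8 genes (1 probe each, quantile normalized over the 6 heart arrays) in cardiac controls and cardiac allografts at POD5; each symbol is 1 array and the horizontal line is the mean of 3. Control 2 stands far below controls 1 and 3 for Myl4 and Myl7, and allograft 2 stands below allografts 1 and 3 for Myh7.

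Nppa was among the brightest probes of every heart array. Its processed signal was 337802, 319127 and 304097 in controls and 259730, 234673 and 218377 in allografts. By brightness it ranked 5 of all probes on each allograft array and 4, 8 and 8 on the control arrays. Quantile normalization therefore gave all 3 allografts the same log2 signal of 18.09, and changes of a probe so near the top are held within narrow limits by this scaling. The log2 difference was 0.06 (SE 0.095, 95% interval -0.18 to 0.30, limma adjusted p = 0.67), and the groups overlapped. On the other Nppa probe the processed signal was 174403, 154408 and 141398 in controls and 150403, 112876 and 99830 in allografts. Its log2 difference was 0.36 (SE 0.17, adjusted p = 0.16), again with overlap.

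Nppb had processed signals of 85634, 125775 and 82679 in controls and 69316, 63388 and 54408 in allografts, with control 2 the brightest of the 6. The log2 difference was 0.21 (SE 0.18, adjusted p = 0.43), with a 95% interval of -0.26 to 0.68. On its other probe it was 0.34 (SE 0.23, adjusted p = 0.32). The groups overlapped on both probes.

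Ankrd1 varied little within either group, as deposited and after quantile normalization. Over the 75th percentile of each array its log2 signal was 7.51, 7.81 and 7.65 in controls and 7.91, 8.65 and 7.89 in allografts. Its processed signal was 211437, 211362 and 198244 in controls and 157860, 146918 and 155738 in allografts, which put it at ranks 44, 46 and 52 of all probes in controls and 26, 27 and 22 in allografts. The normalized log2 signal was 17.35, 17.32 and 17.26 in controls and 17.57, 17.56 and 17.64 in allografts, so each allograft lay above each control. The difference of 0.28 (SE 0.081, a 1.22-fold level) had an unadjusted p of 0.016 and an adjusted p of 0.051 in limma. At such ranks, as for Nppa, quantile normalization holds changes within narrow limits, and with 75th percentile scaling the SE was 0.27. The call depended on the setting: Ankrd1 passed in limma with quantile normalization over all 15 arrays (adjusted p = 0.021) and with normexp background correction (0.018), and did not with 75th percentile scaling (0.16). Without allograft 2 its adjusted p was 0.035.

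Acta1 had processed signals of 62502, 54271 and 49372 in controls and 31233, 26219 and 26163 in allografts. The allografts were dimmer as deposited and overlapped the controls after normalization, with a log2 difference of -0.13 (SE 0.12, adjusted p = 0.44).

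Tnni1 was weakly detected in the heart. Its processed signal was 111, 79.6 and 140 in controls and 31.0, 40.0 and 32.1 in allografts. The log2 difference was -1.01 (SE 0.45, adjusted p = 0.15), and allograft 2 overlapped the controls. On the other probe, well above background on 2 of 3 allografts, the difference was -1.91 (SE 0.70, adjusted p = 0.094) and the groups did not overlap. Without allograft 2 the first probe gave -1.48 (adjusted p = 0.013).

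Myh7 had processed signals of 181227, 295883 and 248743 in controls and 245194, 39756 and 199412 in allografts. Allograft 2 was thus the dimmest of the 6, 4.90-fold below allografts 1 and 3 on the normalized scale. The other Myh7 probe showed the same order, with 188125, 40292 and 165828 in allografts. Of 22460 probes set against allografts 1 and 3 in this way, Myh7 was the 40th lowest in allograft 2 and Myh6, the adult alpha myosin heavy chain, the 25th. By processed signal 7 of 11 adult partners and sarcomere genes were dimmest in allograft 2, which was the dimmest heart array as a whole (75th percentile 394). The share of all probes dimmest there was not computed. On the normalized scale the log2 gaps of these 7 to allografts 1 and 3 ran from -0.13 (Tpm1) to -2.39 (Myh6). The normalized mean of the 12 cardiomyocyte markers was lowest in allograft 2, but Myh6, Ttn, Mybpc3, Actc1 and Tnnt2 belong to both lists, so it adds no separate support. Ttn (titin) read 22944, 4313 and 13266 in allografts, Actn2 (alpha-actinin) 28463, 6617 and 20277 and Mybpc3 (myosin-binding protein C) 193754, 68161 and 149820. Myl2 (166432, 167724 and 130073) and Myl3 (100714, 120637 and 78136) were not low there. The log2 difference of Myh7 between groups was -0.29 (SE 0.69, adjusted p = 0.79), and without allograft 2 it was 0.46 (adjusted p = 0.20).

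Set against Myh6 on the same array, Myh7 was higher in all 3 allografts than in any control. Log2 Myh7 minus log2 Myh6 was -0.24, 0.27 and 0.44 in controls and 1.19, 1.37 and 1.37 in allografts, allograft 2 included. The mean was 0.15 ± 0.35 (SD, n = 3) in controls and 1.31 ± 0.10 in allografts, a shift of 1.16 or 2.23-fold, with an exact two-sided permutation p of 0.10, the smallest that 3 against 3 samples can give. The groups stayed apart for each of the 4 combinations of the Myh7 and Myh6 probes, with shifts of 0.69 to 1.31, and without each array in turn. Of all single probes 54.6% did not overlap between these groups, and the share of probe pairs that separate was not computed. Myh6 itself read 210844, 252995 and 187029 in controls and 88681, 13614 and 68661 in allografts, with a log2 difference of -1.45 (SE 0.71, adjusted p = 0.18). With 75th percentile scaling its difference was -1.38 and passed in limma (SE 0.49, adjusted p = 0.049). Probe sequences were not used here, so cross-hybridisation between these closely related genes was not tested.

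**Figure D2:**
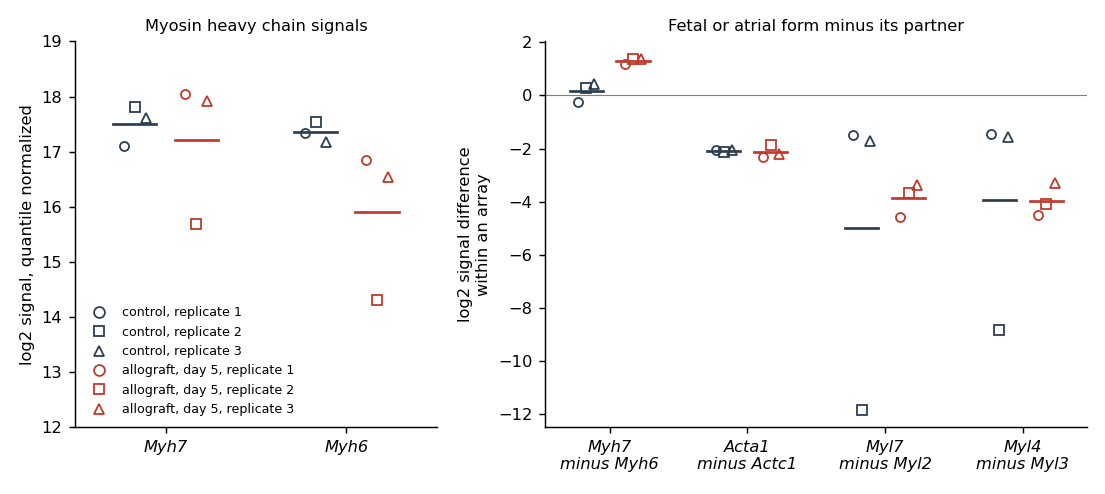
Left, log2 signal of Myh7 and Myh6 on the 6 heart arrays; right, the within-array log2 difference of 4 fetal or atrial forms and their adult ventricular partners. Each symbol is 1 array and lines are means of 3; Myh7 minus Myh6 lies between 1.19 and 1.37 in allografts and between -0.24 and 0.44 in controls, while the other 3 pairs overlap.

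With all 6 arrays the other 4 pairs overlapped between groups. The shift of Acta1 minus Actc1, the skeletal and cardiac alpha-actins, was -0.04 and that of Tnni1 minus Tnni3 was -0.23. Myl7 minus Myl2 shifted by 1.14, and Myl4 minus Myl3 by -0.0040. Without control 2, which stood out by Myl7 and Myl4 themselves (described below), these were -2.25 and -2.45, with no overlap. Without allograft 2, Tnni1 minus Tnni3 was -0.72 and Acta1 minus Actc1 -0.17, also with no overlap. Among the adult partners themselves, Tnni3 fell by 0.78 (SE 0.12, adjusted p = 0.0091) and Myl2 fell by 0.48 (SE 0.13, adjusted p = 0.044). Myl3 (-0.55, adjusted p = 0.080) and Actc1 (-0.09, adjusted p = 0.76) did not pass the test. Of 11 adult partners and sarcomere genes, beside 16.1% of all probes lower and 15.3% higher, none rose and the median was -0.62. Tnni3 and Myl2 were the 2 that fell. Neither passed with 75th percentile scaling (Tnni3 -0.66 and Myl2 -0.17, adjusted p = 0.12 and 0.70), and without control 2 the adjusted p of Myl2 was 0.11.

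The members were also set against the mean log2 signal of the 12 cardiomyocyte markers on the same array, which was 16.57 to 16.9 in controls and 15.54 to 16.27 in allografts. On that scale Nppb lay at -0.68, -0.41 and -0.58 in controls and at 0.25, 0.80 and 0.31 in allografts, a shift of 1.01 or 2.02-fold. Ankrd1 lay at 0.71, 0.41 and 0.69 in controls and at 1.29, 2.02 and 1.75 in allografts, a shift of 1.08. Nppa shifted by 0.86 and Acta1 by 0.67. In each of these 4 genes every allograft lay above every control (exact permutation p = 0.10, the smallest possible), also with the median of the markers, with 75th percentile scaling, with normexp and without each array in turn. Myh7, Tnni1, Myl4 and Myl7 overlapped. Without allograft 2, Myh7 (1.06) and Tnni1 (-0.87) did not, and without control 2, Myl4 (-2.20) and Myl7 (-1.996) did not. These arrays stood out by values of the same genes (Myh7 in allograft 2, Myl4 and Myl7 in control 2). The marker list holds Myh6, Myl2 and Tnni3, and its mean was itself lower in every allograft than in any control. A probe that did not change could therefore separate the groups on this scale. The plain log2 differences were 0.06 for Nppa, 0.21 for Nppb, 0.28 for Ankrd1 and -0.13 for Acta1. The separation is thus no test of a rise of these genes, and the share of all probes that separate in this way was not computed.

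The atrial light chains split the controls. Myl7 read 127177, 91.8 and 110360 in controls and 7091, 10789 and 12404 in allografts. Myl4 read 88756, 588 and 75702 in controls and 4715, 5483 and 8348 in allografts. Control 2 was therefore 1087-fold below the other controls for Myl7 and 132-fold for Myl4 on the normalized scale, and the allografts lay between. Sln (sarcolipin), a regulator of the calcium pump made mainly in the atrium, had the same order, with 130623, 18.0 and 124673 in controls and 5824, 10637 and 11157 in allografts. Of 22460 probes, those of Sln and Myl7 were the 2 lowest in control 2 against controls 1 and 3, and both Myl4 probes were among the lowest 5. Some genes of fat cells were low there too, with log2 values of -6.28 for Cidec, -4.76 for Car3 and -2.64 for Plin1, and were named after these values were seen. The 25 lowest probes also held genes of other kinds, such as Cd207 (-5.58), Epyc (-4.55) and Ahsg (-3.01). No list of fat cell genes was read, so no loss of fat cells is shown. Nppa and the ventricular Myl2 were not low in control 2, at 319127 and 363174.

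**Figure D3:**
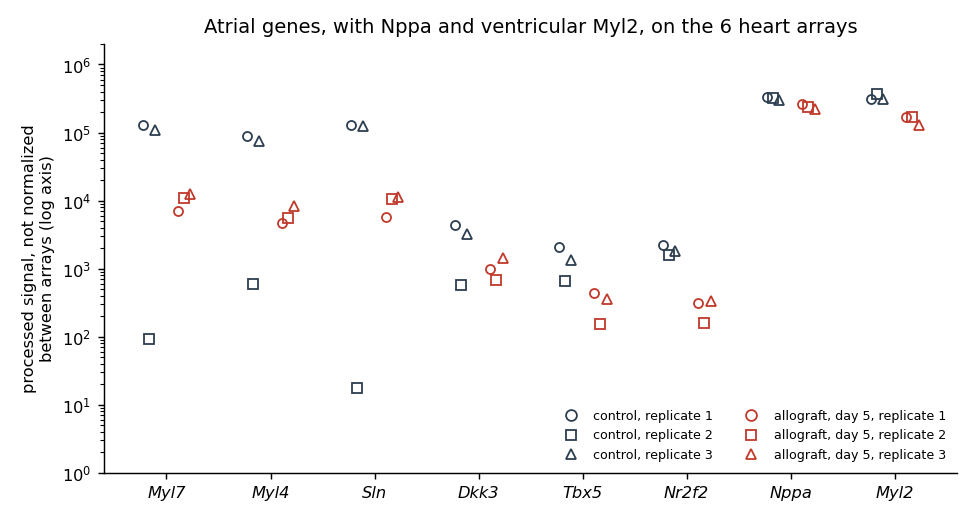
Processed signal on a log axis, not normalized between arrays, of atrial genes and of the ventricular light chain Myl2 on the 6 heart arrays; each symbol is 1 array. For Myl7, Myl4 and Sln, control 2 lies below every allograft and controls 1 and 3 lie above every allograft.

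With all 6 arrays the log2 difference was 0.66 for Myl7 (SE 2.93, adjusted p = 0.89) and -0.56 for Myl4 (SE 2.06, adjusted p = 0.86). Without control 2 it was -2.70 for Myl7 (adjusted p = 0.013) and -2.91 for Myl4 (adjusted p = 0.010). Control 2 stood out by the values of these same genes, and controls 1 and 3 lay above every allograft. These values therefore follow from leaving it out and are no separate test of a fall. Of 9 atrial genes, Sln, Myl7 and Myl4 among them, 1 fell with all arrays (16.1% of all probes fell) and 7 without control 2. There 21.1% of all probes were called in either direction, and 48.2% of those were higher. The 1 was Nr2f2, a transcription factor of atrial muscle and venous endothelium, which did not split the controls: it read 2261, 1602 and 1792 there and 315, 159 and 336 in allografts, and fell by 1.96 (SE 0.10, adjusted p = 0.00079). All 5 endothelial markers fell beside it. How much atrium each heart sample held was not given in the sources used here, and its part in these values was not tested.

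Of 12 genes of the natriuretic peptide system 7 fell, 1 rose and 4 (Nppa, Nppb, Corin and Furin) did not pass, with a median log2 difference of -0.95. Of all probes, 16.1% fell and 15.3% rose. Npr3, the clearance receptor that removes the peptides, read 3353, 510 and 1957 in controls and 163, 40.4 and 106 in allografts, and fell by 3.25 (SE 0.70, adjusted p = 0.022). Npr1, the signalling receptor for ANP and BNP, read 50.6, 31.8 and 37.1 in controls and 12.2, 3.74 and 7.93 in allografts, where it was not well above background. It was at least 1.62-fold lower in allografts (adjusted p = 0.024), a bound that sets the control mean against the dimmest signal well above background on each allograft array. Npr2, the receptor for C-type natriuretic peptide, fell by 1.06 (SE 0.18, adjusted p = 0.010). Nppc, the gene of that peptide, read 56.7, 68.9 and 88.8 in controls and 174, 155 and 154 in allografts and rose by 1.92 (SE 0.35, adjusted p = 0.013).

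Pde5a, which degrades cGMP, was at least 1.68-fold lower (adjusted p = 0.0024), and Mme (neprilysin), which degrades the peptides, at least 3.00-fold lower (adjusted p = 0.025). Pde2a, a phosphodiesterase stimulated by cGMP, fell by 1.31 (SE 0.096, adjusted p = 0.0013), and Prkg1, the cGMP-dependent kinase, fell by 0.83 (SE 0.19, adjusted p = 0.025). The convertases Corin and Furin, which cut the peptide precursors, gave -0.42 and -0.24 (adjusted p = 0.42 and 0.15). Without control 2, where 21.1% of all probes were called in either direction (48.2% of them higher), 4 of the 12 fell. Npr1, Mme and Prkg1 no longer passed there (adjusted p = 0.063, 0.079 and 0.082). The 5 endothelial markers fell on the same arrays, with a median of -1.71, and their part was not tested.

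**Figure D4:**
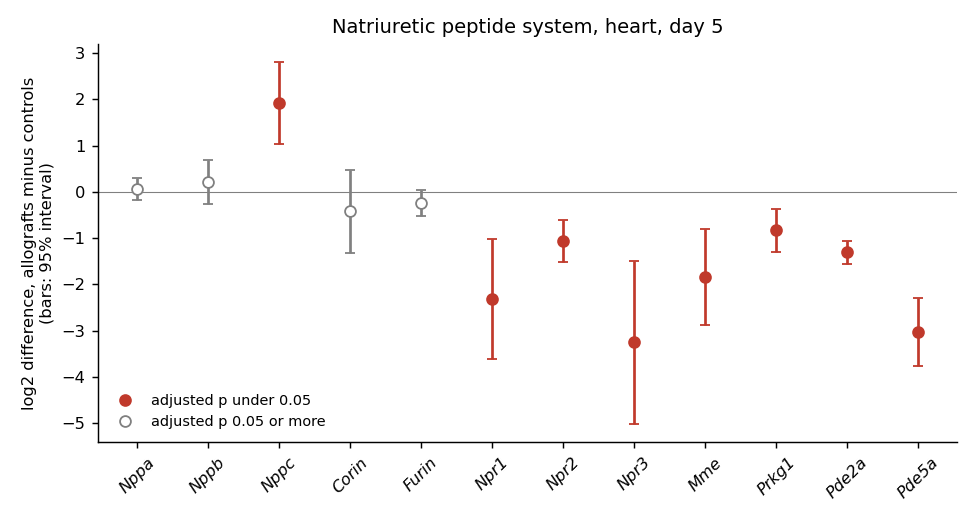
Log2 difference between cardiac allografts at POD5 and controls, with the 95% interval from limma (n = 3 and 3), for 12 genes of the natriuretic peptide system; red points have an adjusted p under 0.05. Nppc is the red point above 0, 7 genes are red below it, and the intervals of Nppa and Nppb include 0.

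Of 23 regulators of the program 5 fell, 1 rose and 17 did not pass, beside 16.1% of all probes lower and 15.3% higher, and their median was -0.70. Tead1, which binds the MCAT element, fell by 1.47 (SE 0.28, adjusted p = 0.016). The deacetylase Hdac9, a repressor of MEF2 factors, fell by 1.36 (SE 0.17, adjusted p = 0.0051) and Nfatc2 by 1.09 (SE 0.23, adjusted p = 0.021). Nfatc4, which calcineurin activates, rose by 0.65 (SE 0.15, adjusted p = 0.026). The number that fell was 12 with 75th percentile scaling, 10 with normexp, 9 without allograft 2 and 2 without control 2. The shares of all probes called there, in either direction, were 51.7%, 30.9%, 41% and 21.1%, against 31.4%. Of those called probes 74.1%, 46.6%, 49% and 48.2% were higher, so the shares that fell were smaller than the shares called. Without control 2, Tead1 and Nfatc2 no longer passed (limma adjusted p = 0.058 and 0.052).

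None of 14 stretch and Z-disc genes, Ankrd1 among them, passed the test, against 31.4% of all probes, and their median was -0.36. Of 9 genes of other fetal forms, Hcn4, the pacemaker channel, rose by 2.28 (SE 0.19, adjusted p = 0.0018). Between the controls of the 2 organs, Hcn4 was the 1 gene of this list called lower in the heart than in the liver. Slc2a1, the glucose transporter GLUT1 of the fetal heart, rose by 1.74 (SE 0.13, adjusted p = 0.0015). Another 6 fell, beside 16.1% of all probes lower and 15.3% higher, with a median of -1.50 over the list. Igf2, a fetal growth factor, fell by 3.62 (SE 0.44, adjusted p = 0.0045), from 21197, 8454 and 15165 to 665, 679 and 514 in processed signal. Cnn1 fell by 2.25 (SE 0.53, adjusted p = 0.029) and Myl9 by 2.23 (SE 0.32, adjusted p = 0.0070), and both are smooth muscle genes, whose marker list also fell.

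Of 19 hypertrophy and stress signals 3 rose and 4 fell, with a median of -0.01. These shares are near those of all probes (15.3% higher and 16.1% lower). Gdf15, a stress cytokine, rose by 1.88 (SE 0.36, adjusted p = 0.016), and the early response genes Fos by 0.69 (SE 0.17, adjusted p = 0.033) and Myc by 0.31 (SE 0.084, adjusted p = 0.042). Without control 2 these 3 did not pass (adjusted p = 0.057, 0.10 and 0.066), and 1 other gene of the list rose, Atf3, by 1.43 (adjusted p = 0.0070), which is named here after its values were seen. Fos did not pass without allograft 2 either (adjusted p = 0.059). Mstn (myostatin), which restrains muscle growth, was at least 1.04-fold lower (adjusted p = 0.0018), and Ctf1 (cardiotrophin 1) fell by 1.54 (SE 0.32, adjusted p = 0.021), with an adjusted p of 0.052 without control 2. Fgf21 passed the test as lower (adjusted p = 0.013) but was not well above background in any allograft, and no bound above 1 could be given.

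The scaling of the arrays set the sign of small differences. With 75th percentile scaling the median of all probes moved from 0.01 to 0.46 and the share of called probes that were higher in allografts from 48.7% to 74.1%. Against that median, Nppa was at 0.49, Nppb at 0.29 and Ankrd1 at 0.49. With no normalization between arrays the median of all probes was -0.46, and Nppa (-0.43), Nppb (-0.63) and Ankrd1 (-0.43) lay below 0.

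**Figure D5:**
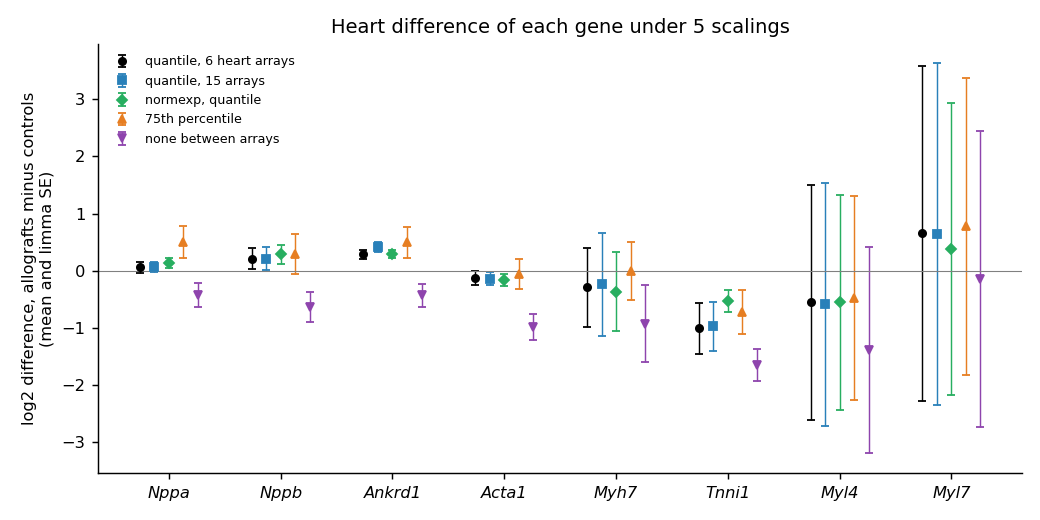
Log2 difference between cardiac allografts at POD5 and controls for the 8 genes under 5 ways of scaling the arrays; points are estimates and bars are 1 limma SE on each side (n = 3 and 3). Nppa, Nppb and Ankrd1 lie above 0 under 4 scalings and below 0 with none between arrays, and the bars of Myl4 and Myl7 are the longest.

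The liver samples gave a background for each probe. In hepatic controls Nppa read 9.41, 17.7 and 24.7. Myh7 read 4.25, 6.64 and 15.8, not well above background on any of the 3. Between cardiac and hepatic controls 6 of 8 members were higher in the heart, against 25.7% of all probes (49% differed), and 7 of 8 did not overlap, against 66.3% (30.7% higher and 35.6% lower in the heart). The log2 differences were 12.81 for Nppa, 10.42 for Nppb, 9.22 for Acta1 and 12.54 for Ankrd1, and Myh7 was at least 8098-fold higher. Tnni1 was 0.94 higher (SE 0.26, adjusted p = 0.031), with 7.55, 8.28 and 12.2 in hepatic controls. It did not pass with 75th percentile scaling (adjusted p = 0.065) or without cardiac control 1 or 3 or hepatic control 2 or 3 (adjusted p = 0.071, 0.081, 0.085 and 0.078). Myl4 (6.43, adjusted p = 0.056) and Myl7 (5.84, adjusted p = 0.17) did not pass the test. Without cardiac control 2, which stood out by these genes, they were 8.95 and 9.42 higher (adjusted p = 0.00037 and 0.00051). With all 15 arrays normalized together, Myl7 was 5.50 in cardiac control 2 and 7.22, 6.89 and 5.88 in hepatic controls. Organ and slide cannot be told apart here.

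In the hepatic allografts no member differed from controls at POD5, where 3.66% of all probes did (2.66% higher and 0.996% lower), or at POD8, where 5.44% did (3.74% higher and 1.7% lower). These background shares rest on single arrays: without 1 array they ran from 0.00729% (POD5 allograft 2 left out) to 2.71% (hepatic control 1) at POD5 and from 0.848% (POD8 allograft 1) to 6.95% (hepatic control 1) at POD8. At an unadjusted p under 0.05 there was 1 member at each time, Acta1 at POD5 and Tnni1 at POD8. Groups did not overlap for 2 members at each time, against 31.2% and 31.4% of all probes. The processed signals below are not normalized between arrays, and the liver arrays differed in brightness as a whole. Their 75th percentile was 92.1, 165 and 226 in controls, 478, 407 and 338 at POD5 and 384, 407 and 454 at POD8. Acta1 read 6.76, 18.6 and 44.2 in controls, 133, 125 and 62.1 at POD5 and 66.8, 55.5 and 133 at POD8, with a log2 difference of 1.07 (SE 0.41, adjusted p = 0.23) at POD5 and 0.75 (SE 0.45, adjusted p = 0.40) at POD8. Tnni1 gave -0.48 and -0.78 (adjusted p = 0.26 and 0.13). Ankrd1 varied most, with 1.48, 8.17 and 122 in controls and 416, 87.9 and 76.8 at POD5, and its difference of 2.42 had an SE of 1.58. Actc1, the adult partner of Acta1, rose in the liver at POD5 by 1.82 on the normalized log2 scale (SE 0.28, adjusted p = 0.039). Its processed signal was 71.9, 128 and 320 in controls and 1488, 1460 and 986 at POD5. At POD8 the log2 difference of Actc1 was 0.64 (SE 0.50, adjusted p = 0.51). Both liver comparisons share the hepatic controls, and no slide held both hepatic POD5 allografts and controls.

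The POD5 difference in the heart was tested against that in the liver (interaction in limma), and no member passed, against 13.7% of all probes (6.38% with the heart difference higher and 7.29% lower). Acta1 had the smallest p, with -1.24 for heart minus liver (SE 0.47, adjusted p = 0.11).

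The genes most like each member over the 6 heart arrays were ranked by Pearson's r of log2 signal among 12926 genes, as a description. For Myl7 they were Sln (r = 0.999), Cpne5 (0.989) and Sec11a (0.980), and for Myl4 Dkk3, another atrial gene (0.991), Abi1 (0.982) and Anxa2 (0.978). For Myh7 they were Pitpnb, Sestd1 and Zfp407 (0.994, 0.994 and 0.991), and for Nppb Mapkapk2, Nudt13 and Polr1e (0.988, 0.985 and 0.983). These values rest on 6 arrays of 2 groups and 2 slides, and for Myl4, Myl7 and Myh7 the arrays include the 1 that stands apart.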

How the data were processed

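RNA of 15 tissue samples was hybridised to one-colour (Cy3) Agilent arrays. For every spot the deposited files give a processed signal intensity (background-subtracted by the scanner software, not normalized between arrays) and median spot and background intensities, used with normexp (offset 50). Outlier spots (47 to 113 per array) were left out, log2 values of a probe's spots averaged, and the arrays of each comparison quantile normalized. Probes were named through RefSeq accessions (26690 of 41174 matched). Differences were tested with limma 3.58.1 (R 4.3.3; lmFit, eBayes, two-sided, Benjamini-Hochberg over all probes, called under 0.05). Each gene was described on its probe with the highest mean in the heart; up to 3 called genes per list and direction and the adult partners are named, and further named genes were chosen after their values were seen. A probe was well above background where at least 0.5 of its spots were so marked. Alternatives covered scaling, background, filter, outlier spots, test, blocks and left-out arrays. Precision is limited by 3 arrays per group. The scripts were tested on simulated data. The members and lists were chosen with earlier results of these data known. Xirp1, Myh7b, H19 and Lif were not analysed here.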

Additional observations from a re-analysis of the deposited data

Results flagged for a closer look

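The POD5 difference in the heart was set against that in the liver for the 8 genes and 15 listed partner and natriuretic genes, and the interaction passed limma's test (Benjamini-Hochberg over all probes) for 4 genes, none of them a member. Heart minus liver was -1.86 for Actc1 (SE 0.39, adjusted p = 0.016), -2.18 for Npr1 (SE 0.50, adjusted p = 0.021), -1.40 for Pde2a (SE 0.30, adjusted p = 0.017) and -3.14 for Pde5a (SE 0.62, adjusted p = 0.012). Npr1 and Pde5a were not well above background in any cardiac allograft, so their fitted values give no size of the difference. The Actc1 difference was 1.82 in the liver and -0.09 in the heart. In both organs group and slide cannot be told apart at POD5.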

How the results depend on the processing

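In the heart, the number of the 8 members that passed was 0, and 1 with quantile normalization over 15 arrays, normexp, the methods' t-test with Benjamini-Hochberg adjustment or a trended and robust prior (Ankrd1 each time) and 1 in a fit of all 5 groups (Tnni1). It was 2 with no normalization between arrays (Acta1 and Tnni1), 3 without control 2 and allograft 2 together (Myl4, Myl7 and Tnni1) and 0 to 2 without each array in turn. With no normalization the heart differences of Nppa (-0.43), Nppb (-0.63), Myl7 (-0.15) and Ankrd1 (-0.43) changed sign. By group medians (the SFC method) those of Myh7 (0.30) and Myl7 (-2.37) did, and without both arrays numbered 2 those of Myh7 (0.63) and Myl7 (-2.78) did. Without each array in turn Myh7 ran from -0.70 to 0.46, Myl4 from -2.91 to 0.66 and Myl7 from -2.70 to 2.37 for the cardiac comparison.

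With no normalization the median of all probes itself moved to 1.03 in hepatic allografts at POD5 (26.7% of probes called, 99.8% of them higher), to 0.99 at POD8 (33.2%, 99.9% higher) and to -1.69 in the interaction (51.5%, 0.497% higher), so the changes of sign there are read against a shift of all probes.

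For hepatic allografts at POD5, 1 member (Acta1) passed in the fit of all 5 groups (15.1% of all probes called) and 3 with no normalization, where Nppb (1.01), Myh7 (1.35), Myl4 (1.40), Myl7 (0.71) and Tnni1 (0.94) changed sign. Near 0, Tnni1 gave 0.0040 with normexp, Myh7 0.061 and Myl4 0.029 by SFC, and Myl4 0.0056 with slide as a random block. At POD8, 2 passed with no normalization, where Nppa (1.11), Nppb (0.83), Myh7 (0.95), Myl7 (0.32) and Tnni1 (0.53) changed sign, and Myl4 gave -0.023 with normexp. Leaving out each array in turn gave Myl4 values between -0.29 and 0.26 (POD5) or between -0.071 and 0.46 (POD8), and Myh7 values between -0.22 and 0.12 (POD5). Of the 6 members higher in cardiac than hepatic controls, 1 passed with the t-test and 3 with limma after Bonferroni adjustment. In the interaction 6 members passed with no normalization, where Nppb (-1.65) and Myl7 (-0.85) changed sign. Nppa gave 0.27 and Myh7 0.054 there with 75th percentile scaling, and Nppa 0.11 with normexp. Without each array in turn 0 to 1 members passed it, and Myh7 ran from -0.69 to 0.80, Myl4 from -2.98 to 0.72 and Myl7 from -2.06 to 3.15.

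With 75th percentile scaling 1 adult partner (Myh6), 2 atrial genes and 12 regulators fell. With normexp 2 atrial genes, 10 regulators and 1 stretch gene fell, and 1 stretch gene and 6 stress signals rose. Without both arrays numbered 2, 1 adult partner and 6 atrial genes fell, and 3 regulators and 1 stretch gene rose. Without control 2 or allograft 2 singly, 1 to 4 adult partners, 1 to 7 atrial genes, 4 to 7 natriuretic genes and 2 to 9 regulators fell, and 1 to 3 regulators, 1 to 2 stress signals and 0 to 1 stretch genes rose. The isoform pairs that did not overlap numbered 1 to 3 without each array in turn. The cause of these changes was not tested. The share of all heart probes called in either direction was 51.7% with 75th percentile scaling and 30.9% with normexp. It was 37.5% without both arrays numbered 2, 21.1% without control 2 and 41% without allograft 2. Of the probes called in these settings 74.1%, 46.6%, 48.4%, 48.2% and 49% were higher, in the same order. Settings with no normalization, within 1 slide, and without the arrays numbered 2 were chosen after seeing the data.

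With the replicate number as a block, 0 members passed in the heart and 20% of all probes did, against 31.4% without it; same-numbered samples share only a number (correlations of their deviations 0.01, -0.12 and -0.06 in the heart), and the block changed no member's call in the heart or liver allograft comparisons. Of the members, 5 of 8 passed between cardiac and hepatic controls with that block, where Tnni1 did not (adjusted p = 0.087), nor did it with slide as a random block (0.077) or the t-test (0.062). In the liver, limma with the replicate block called 0 probes at POD5 (6528 at an unadjusted p under 0.05) and 0 at POD8 (8161), and scan day as a block called 0.901% at POD5. The share of called probes that were higher moved with 75th percentile scaling for hepatic POD5 samples from 72.8% to 75.3%, for POD8 from 68.7% to 18.4%, from 52.5% to 31% between organs and from 46.7% to 82% in the interaction. With 3 arrays per group the precision is limited by their number.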
